A study of Mus musculus with 4 samples.

Results

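The genes described here are the cytosolic sensors of RNA and DNA, their adaptors and the proteins that restrain them, as transcribed in cells sorted as smooth muscle from lungs of Tet3 mutant and control mice. The list was set by gene symbol and held 10 genes: *Ddx58*, *Ifih1*, *Dhx58*, *Mavs*, *Tmem173*, *Eif2ak2*, *Zbp1*, *Adar*, *Samhd1* and *Trex1*. Of these, 8 were found by symbol among the 21462 genes of the table. *Tmem173*, the gene of the adaptor STING, was found by its Ensembl identifier under its newer symbol *Sting1*, which is used from here on. *Trex1*, a DNA exonuclease of the cytosol, is not analysed here. In the GENCODE M21 annotation, 100% of its exon bases also belong to *Atrip* on the same strand, and reads overlapping more than 1 gene were left out of the authors' counts. The 9 remaining genes all had a mean of at least 10 and were tested among 16659 genes.

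Cells recognize RNA in the cytosol with helicases of the RIG-I family. RIG-I (encoded by *Ddx58*) binds short double-stranded RNA with a 5′ triphosphate and MDA5 (*Ifih1*) binds long double-stranded RNA. Both signal through MAVS on mitochondria, whereas STING, on the endoplasmic reticulum, relays the presence of cytosolic DNA. Either route activates the kinase TBK1 and the factor IRF3 and thereby type I interferon, and interferon in turn raises the transcription of several of these sensors. The study asked what loss of *Tet3* does to transcription and to innate immune signalling of smooth muscle cells (SMCs), and the cytosolic sensors are 1 set of receptors through which RNA or DNA could be sensed.

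Interferon acts on its target genes through a DNA element, the interferon-stimulated response element. Its core, GAAA, 2 bases of any kind and GAAA again, was searched on both strands (TTTC, 2 bases and TTTC on the other) in RefSeq promoters of GRCm38.p6, from 250 bases before to 50 bases after each start site. Promoters were at hand for 7 of the 10 genes, and 3 of these held a match. The match was in *Ddx58*, *Ifih1* and *Eif2ak2*, and *Mavs*, *Adar*, *Samhd1* and *Trex1* had none in this window. Among all 27025 genes with an entry 3.99% held it in at least 1 promoter, or 3.44% of 32851 promoters, and among 14 interferon-stimulated genes with an entry 8 did. The windows of 30 bases below show those of the 3 sensor genes beside 2 classical interferon-stimulated genes, each 5′ to 3′ on the strand of the gene, with the core in capitals. They are shown so that the matches in sensors can be read beside those in genes known as interferon targets.
Ddx58 (chr4:40239804-40239833, minus strand): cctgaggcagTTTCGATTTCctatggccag
Ifih1 (chr2:62646206-62646235, minus strand): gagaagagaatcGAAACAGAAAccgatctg
Eif2ak2 (chr17:78882535-78882564, minus strand): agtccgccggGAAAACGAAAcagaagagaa
Isg15 (chr4:156200871-156200900, minus strand): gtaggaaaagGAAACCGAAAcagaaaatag
Ifit1 (chr19:34640775-34640804, plus strand): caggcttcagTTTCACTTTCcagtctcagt
In the 3 sensors the first matched base lay 3 (*Ddx58*), 33 (*Ifih1*) and 19 (*Eif2ak2*) bases into the transcript, counting the start site as 1. The match of *Isg15* overlaps 2 further ones in its promoter. A match is a likeness of letters and no binding was measured here.

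The 4 libraries came from SMCs sorted by their tdTomato fluorescence from the lungs of C57BL/6 mice, with 2 Tet3 mutant and 2 control libraries. Mutant animals carried floxed *Tet3* alleles and a tamoxifen-inducible Cre recombinase driven by the promoter of α-smooth muscle actin. The study's control animals lacked the floxed allele but carried the Cre and/or the tdTomato reporter, and tamoxifen was injected into the peritoneum of young adult mice. The labels give neither the interval from tamoxifen to these libraries nor age at collection or sex. Cells bearing CD45 or Ter-119 were removed with magnetic beads before sorting, and a library stands for 1 animal by the study's account. Values are normalized counts, that is, reads per gene scaled between libraries by the authors, and library totals ran from 6805272 to 7164573. *Tet3* itself stood at 1847 and 1926 in the controls against 1534 and 1444 in the mutants, which was lower without overlap (log2 fold change -0.34, unadjusted limma p 0.0184, adjusted p 0.681).

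Markers of smooth muscle were present, but so were those of other lung cells. The 8 smooth muscle markers summed to 4567 and 5848 normalized counts over the control and 6894 and 6519 over the mutant libraries. The 6 endothelial markers summed to 11800 to 12850 over the 4 libraries, the 5 fibroblast markers to 12622 to 15717 and the 5 alveolar type 2 markers to 7104 to 14883. The 4 pan-leukocyte markers (*Ptprc*, *Laptm5*, *Coro1a*, *Tyrobp*) summed to 3931 and 2847 over the control and 4575 and 4030 over the mutant libraries. No marker of any of the 11 lists was at 0 in a library. In such bulk samples, fewer cells of a type cannot be told apart from less RNA per cell. Control replicate 2 stood apart from the other libraries. *Xist* was at 2 in it and at 5214 or above in the others, and *Ddx3y* was at 774 in it and listed at 0 in the others. *Ddx3y* lies on the Y chromosome, and *Xist* RNA comes from the inactive X chromosome of females. By these values control replicate 2 was male and the other libraries female. Sex thus differed between the 2 controls and cannot be told apart from other differences between them. Each member and each list median is therefore also given without control replicate 2.

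Expression of the cytosolic sensors was compared between Tet3 mutant and control SMCs with limma on log2(normalized count + 1), and a gene was called at an adjusted p under 0.05. Of the 9 genes tested, 7 had a log2 fold change above 0 and 2 below 0, against 49.0% above 0 among all genes tested. The fold changes were small, from -0.09 to 0.47 on the log2 scale, with a median of 0.09 beside a median of -0.0069 over all genes. None of the 9 passed an adjusted p of 0.05 in limma, as 0 of 16659 genes did (0%), and the smallest adjusted p among the 9 was 0.681. At an unadjusted p under 0.05, 1 of the 9 was called, *Sting1*, against 6.68% of all genes. Groups did not overlap in 2 of the 9, *Sting1* with higher and *Adar* with lower mutant values, against 39.0% of all genes. With 2 libraries against 2, an exact permutation test of 1 gene cannot give a p below 0.333.

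**Figure D1:**
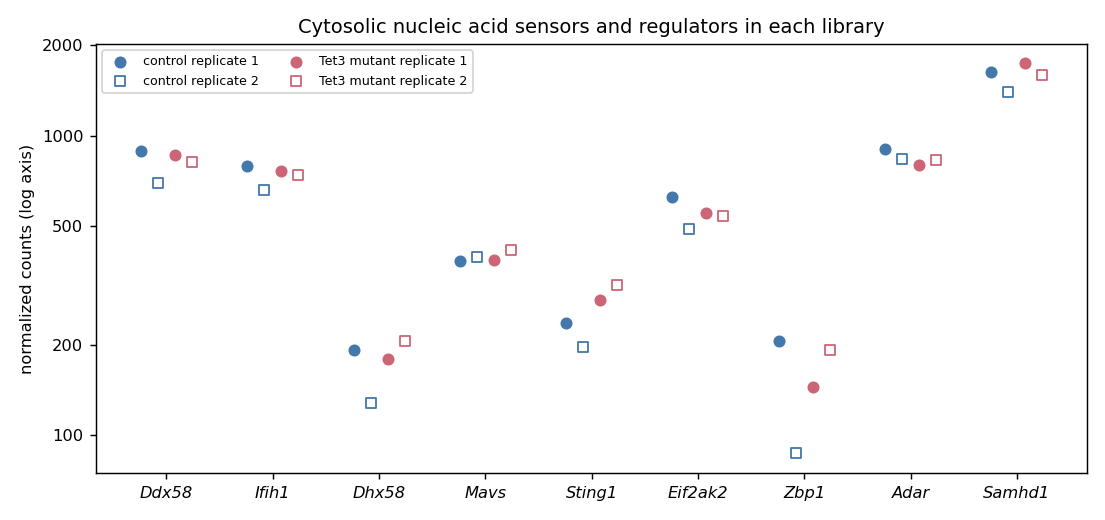
Normalized counts (log axis) of the 9 genes in each of the 4 libraries, with controls in blue and Tet3 mutants in red, replicate 1 as filled circles and replicate 2 as open squares. Control replicate 2 is the lowest library for 7 genes, and both mutants exceed both controls for Sting1.

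The 3 RIG-I-like helicases had mutant values inside or around the range of the controls. For *Ddx58* (chromosome 4, 40203773 to 40239828, GRCm38), control libraries held 890 and 696 normalized counts and Tet3 mutant libraries 858 and 813. Both mutants lay between the 2 controls, at a log2 fold change of 0.09 (standard error 0.15, limma adjusted p 0.89). For *Ifih1* (chromosome 2, 62595798 to 62646255), control libraries held 791 and 660 and mutant libraries 761 and 737. Again both mutants fell between the controls, at a log2 fold change of 0.05 with a 95% interval of -0.29 to 0.39. Without control replicate 2, the values were -0.092 for *Ddx58* and -0.079 for *Ifih1*, so both changed sign. In folds, the intervals from all libraries ran from 0.81 to 1.39 for *Ddx58* and from 0.82 to 1.31 for *Ifih1*. A change of 2 times in either sensor lay outside its interval.

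*Dhx58* (chromosome 11, 100694884 to 100704271) encodes LGP2, which has the helicase but not the signalling domains and modulates MDA5. Its values were 192 and 128 in the control and 180 and 206 in the mutant libraries. Control replicate 2 was alone at the low end and the other libraries overlapped. The log2 fold change of 0.29 (standard error 0.25, limma adjusted p 0.755) became 0.0042 without control replicate 2.

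The 2 adaptors differed from each other in how they stood between the groups. *Mavs* (chromosome 2, 131234063 to 131248025) stood at 381 and 394 normalized counts in the controls, against 385 and 414 in the mutants. Mutant replicate 1 fell between the controls, and the log2 fold change was 0.04 (standard error 0.12, limma adjusted p 0.938). In folds, the interval ran from 0.826 to 1.28, and without control replicate 2 the log2 value was 0.067.

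*Sting1* (ENSMUSG00000024349, chromosome 18, 35733679 to 35740554) stood at 236 and 197 normalized counts in the controls, against 283 and 318 in the Tet3 mutants. Both mutants were higher than both controls, with means of 216.5 ± 27.6 and 300.5 ± 24.7 (SD, n = 2 each). On the log2 scale the difference was 0.47 (standard error 0.17), or 1.39-fold with a 95% interval of 1.03 to 1.88. The unadjusted limma p was 0.0374 and the adjusted p 0.681, so the difference did not pass the threshold over all genes. *Sting1* was the gene of smallest p among the 9. Its direction was the same without any single library (0.345 to 0.604), and the value without control replicate 2 was 0.345 at an unadjusted limma p of 0.0956.

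Among 133 genes of the pathway lists, those nearest to *Sting1* in their pattern over the 4 libraries were *Pycard*, *Irf5* and *Rnaseh2b*. Their distances, on centred log2 values, were 0.151, 0.224 and 0.227, where the median of the 133 genes was 0.521. Values of *Pycard*, the adaptor of inflammasomes, were 118 and 95 in the control and 142 and 177 in the mutant libraries. Those of *Irf5*, a transcription factor abundant in myeloid cells, were 445 and 443 against 519 and 631. The summed macrophage markers ran in the same order of libraries as *Sting1*, as did 5 of the 8 markers singly. *Lyz2*, *Marco* and *Siglecf* did not, and the share of all genes with this order was not counted. The 8 markers summed to 5865 for control replicate 2 and 6576 for control replicate 1, below 7138 and 8076 for mutant replicates 1 and 2. Of the 8, 7 had a log2 fold change above 0 (49.0% of all genes tested). Sums of pan-leukocyte, T cell, B cell and neutrophil markers were higher in mutant replicate 1 than in mutant replicate 2, unlike *Sting1*. The pan-leukocyte sum took this order from *Ptprc*, at 2674 and 1885 in mutant replicates 1 and 2. *Laptm5*, *Coro1a* and *Tyrobp* singly ran in the order of *Sting1*, and the T cell markers *Cd2* and *Trac* were higher in mutant replicate 2. The part of macrophage RNA in the level of *Sting1* was not tested.

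**Figure D2:**
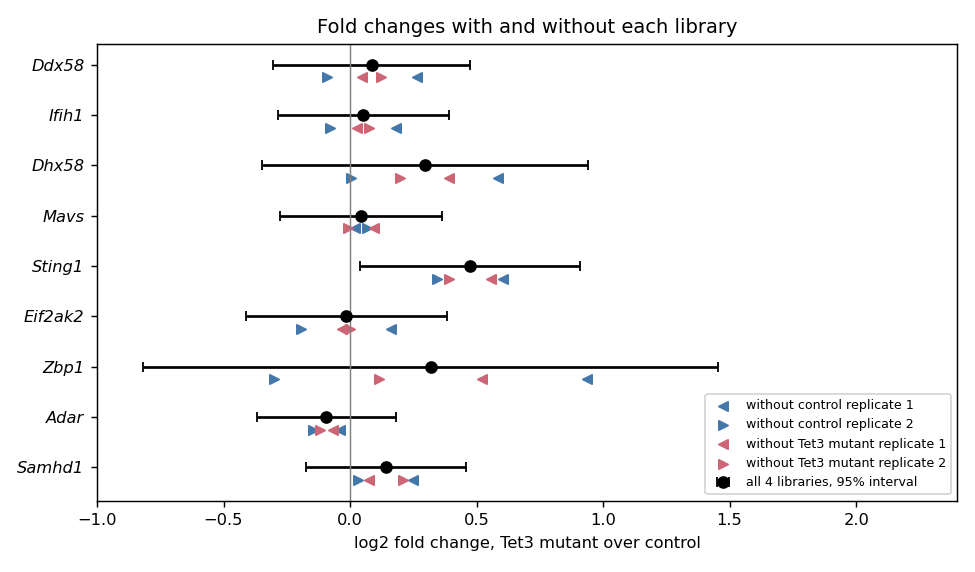
Log2 fold change (Tet3 mutant over control) of each gene, with black circles and bars for the limma estimate and 95% interval from all 4 libraries and triangles for estimates with 1 library left out. Without control replicate 2, the estimates of Ddx58, Ifih1 and Zbp1 move from above to below 0, and that of Sting1 is 0.345.

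PKR and ZBP1 both sense double-stranded nucleic acid and act on the cell directly. *Eif2ak2* (chromosome 17, 78852564 to 78882573) encodes PKR, the kinase that halts translation through eIF2α on binding double-stranded RNA. Control libraries held 622 and 487 normalized counts of it and mutant libraries 550 and 539. The mutants lay close together between the controls, at a log2 fold change of -0.016 (standard error 0.155, limma adjusted p 0.985). Without control replicate 2 it was -0.19.

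*Zbp1* (chromosome 2, 173206612 to 173218923) encodes a sensor of left-handed nucleic acid that triggers necroptosis through RIPK3. Its values were 206 and 87 in the control and 145 and 193 in the mutant libraries, and its standard error was the widest of the 9 genes. The controls alone spanned both mutants, which differed from each other as well. The log2 fold change was 0.32 (standard error 0.44), and the fold interval of 0.568 to 2.74 held both directions. Without control replicate 2 it was -0.30. T cell markers were low in the same library, where 6 markers summed to 538 and 132 over the control and 592 and 581 over the mutant libraries, none of them at 0 in a library. All 6 T cell markers had a log2 fold change above 0. Their sums in both mutants were above control replicate 1, unlike the values of *Zbp1*. The sums of pan-leukocyte, macrophage, B cell and neutrophil markers were also lowest in control replicate 2. The part of any of these cells in the level of *Zbp1* was not tested.

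Of the regulators, *Adar* encodes the enzyme that edits adenosine to inosine in double-stranded RNA and keeps self RNA from MDA5 and PKR. *Adar* (chromosome 3, 89715022 to 89753446) stood at 899 and 834 normalized counts in the controls, against 797 and 826 in the Tet3 mutants. Both mutants were below both controls, at a log2 fold change of -0.09 (standard error 0.11, limma adjusted p 0.819). In folds, the interval ran from 0.775 to 1.13. The log2 value was -0.148 without control replicate 2 and -0.040 without control replicate 1. Of its exon bases 16.8% overlap *Chrnb2* on the opposite strand, which makes this level less certain, since the use of strand in counting is not stated. Smaller overlaps on the opposite strand were annotated for *Dhx58* (4.31%, *Dhx58os*) and *Eif2ak2* (3.4%, *Gm26637*, and 0.919%, *n-R5s29*).

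*Samhd1* (chromosome 2, 157097533 to 157135265) encodes the phosphohydrolase that depletes deoxynucleotides and limits nucleic acid able to reach the sensors. Its values were 1624 and 1396 in the control and 1739 and 1586 in the mutant libraries. Mutant replicate 2 fell between the controls, at a log2 fold change of 0.14 (standard error 0.12, limma adjusted p 0.76). Without control replicate 2 the value was 0.032.

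Levels were also divided by exon length, with the exons of all annotated transcripts of a gene merged. The order of genes below therefore depends on which transcripts are annotated, used in these cells or not. *Samhd1* was the most abundant at 173 normalized counts per kilobase, averaged over the 4 libraries, and its range of 153 to 190 lay above that of every other member. *Mavs* (118), *Ddx58* (115), *Eif2ak2* (107), *Adar* (103), *Sting1* (94.3) and *Ifih1* (90.3) followed. Each of these 6 overlapped its neighbour in the order across libraries. *Dhx58* at 53.9 and *Zbp1* at 44.7 per kilobase were lowest, and their ranges of 39.1 to 63.0 and 24.7 to 58.4 overlapped each other but not that of *Ifih1* (80.8 to 96.9). Among all genes tested, these levels ran from the percentile 44.2 for *Zbp1* to 87.9 for *Samhd1*. RNA of every one of the 9 genes was counted in each library, and whether SMCs or other cells of the sort held it was not tested.

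The 2 controls differed from each other, on the log2 scale, by more than the groups did in 8 of 9 genes, all but *Sting1* (62.7% of all genes tested). The controls differed by more counting SDs than the mutants did in 8 of 9 genes (63.1% of all genes), where a counting SD is the error expected from read numbers alone, without the spread between animals. That difference exceeded 3 counting SDs in 6 of 9 genes (30.5%), up to 7.0 for *Zbp1*, 4.87 for *Ddx58* and 4.14 for *Samhd1*. Between the mutants it was at most 2.65. Control replicate 2 was the lowest of the 4 libraries in 7 of 9 genes (33.1% of all genes tested), and control replicate 1 the highest in 5 of 9 (21.5%). Both mutants lay between the controls in 4 of 9 genes, *Ddx58*, *Ifih1*, *Eif2ak2* and *Zbp1* (17.8%). *Mavs* and *Adar* were the 2 genes that were not lowest in control replicate 2.

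Interferon-stimulated genes were also low in control replicate 2, while control replicate 1 was the highest library in 4 of 20 of them. Of 20 effectors of the interferon response, such as *Ifit1*, *Mx1* and *Isg15*, 20 were lowest in control replicate 2 (33.1% of all genes). On the log2 scale, with each gene centred on its mean, their median was -0.54 for that library and 0.134 for control replicate 1, and 0.19 and 0.245 for mutant replicates 1 and 2. The same medians over the 9 sensor genes were -0.18 for control replicate 2, 0.105 for control replicate 1, and 0.049 and 0.0043 for the mutants. Both lists had their lowest median in control replicate 2, whereas the mutants lay above control replicate 1 for the effectors and below it for the sensors. For *Ifit1*, chosen with *Isg15* after values were seen, the controls stood at 200 and 84 and the mutants at 205 and 273. For *Isg15* they stood at 37 and 15 against 34 and 36. Pan-leukocyte, macrophage, T cell, B cell, neutrophil, endothelial and fibroblast markers also had their lowest sums in control replicate 2, and alveolar type 1 and 2 markers their highest. The endothelial sums of control replicates 1 and 2 were close, at 11942 and 11800. Some single markers went against their sums. *Vwf* (endothelial), *Lyz2* (macrophage) and *Cd79b* (B cell) were not lowest in control replicate 2, whereas *Hopx* and *Pdpn* (alveolar type 1) were. The part of any of these cells in the levels was not tested.

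**Figure D3:**
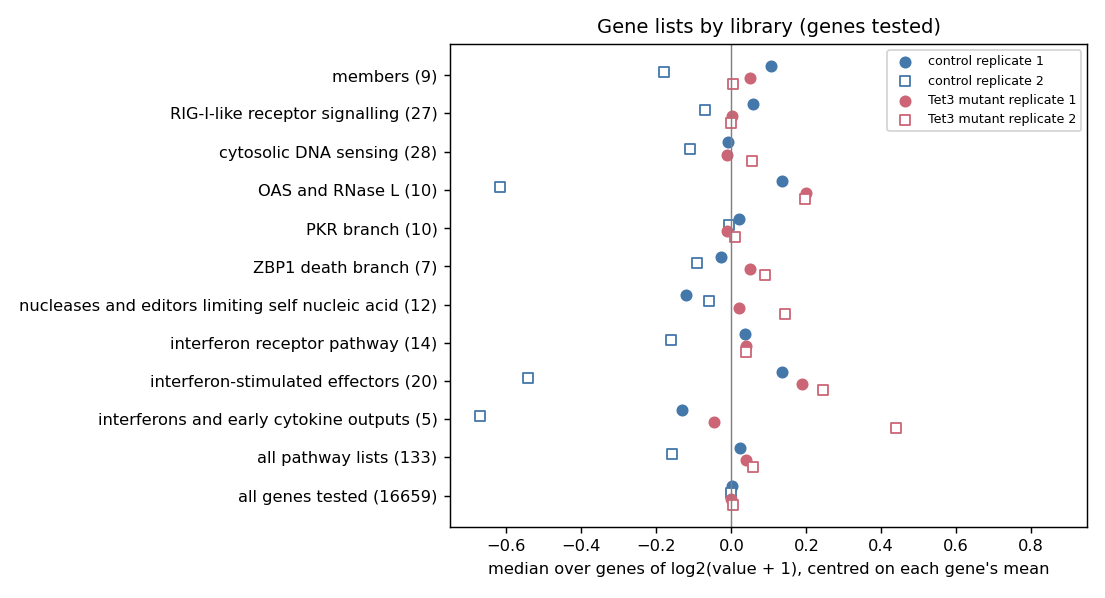
Median over the genes of each list of log2(value + 1), after subtracting the mean of each gene over the 4 libraries, with 1 symbol per library and the number of genes tested in brackets. Control replicate 2 stands at -0.54 for interferon-stimulated effectors, -0.62 for OAS and RNase L genes and -0.18 for the 9 members.

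Genes that act with these sensors were followed as 9 further lists, with 133 tested genes in all. Over them the median log2 fold change was 0.12, with 93 above 0 (69.9%, against 49.0% of all genes) and 40 below. Control replicate 2 was the lowest library in 77 of them (57.9%, against 33.1% of all genes). The median over all 133 was not computed without that library, and those of the single lists are given below. In limma, 0 passed an adjusted p of 0.05. At an unadjusted p under 0.05, 2 of the 133 were higher (3.83% of all genes) and 1 was lower (2.85%). Groups did not overlap with higher mutant values in 34 genes (19.6% of all genes) and with lower values in 12 (19.5%).

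Signalling below RIG-I and MDA5 was centred on no change. The median over 27 genes was 0.013 on the log2 scale, with 15 above and 12 below 0, and -0.0034 without control replicate 2. *Irf5* had the smallest p on the higher side (log2 fold change 0.37, unadjusted limma p 0.049, adjusted p 0.681). *Traf6*, a ubiquitin ligase downstream of MAVS and TLRs, stood at 551 and 599 in the controls against 449 and 505 in the mutants (-0.27 on the log2 scale, limma adjusted p 0.681). *Ddx3x*, an X-linked RNA helicase gene, had the highest level per kilobase at 397, and sex differed between the controls. The kinase gene *Tbk1*, chosen after its values were seen, stood at 649 and 693 in the controls against 667 and 655 in the mutants, and *Irf3*, likewise, 527 and 570 against 508 and 502.

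The 28 genes tested for sensing of cytosolic DNA had a median log2 fold change of 0.07, with 16 above and 12 below 0, and -0.0061 without control replicate 2. *Pycard* had the smallest p on the higher side, at a log2 fold change of 0.58 (unadjusted limma p 0.0539). *Prkdc*, the catalytic subunit of the DNA-dependent protein kinase, stood at 867 and 816 in the controls against 701 and 660 in the mutants (-0.31 on the log2 scale, unadjusted limma p 0.037, adjusted p 0.681). *Rad50* was highest per kilobase at 186. *Cgas*, which makes the second messenger that STING binds, was named after its values were seen and stood at 76 and 52 in the controls against 95 and 97 in the mutants, by 0.60 on the log2 scale (unadjusted limma p 0.0879).

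OAS proteins make the messenger that activates RNase L, a nuclease that degrades RNA on infection. Over 10 genes the median log2 fold change was 0.38, 9 were above 0, and 9 of 10 were lowest in control replicate 2. Without that library the median was 0.065. *Oas1g*, at 9 and 5 in the controls against 16 and 17 in the mutants, had the smallest p (unadjusted limma p 0.0661), and near-identical *Oas1* copies make its counts uncertain. *Oas1c* was the 1 gene below 0, at -0.15, and *Abce1*, an inhibitor of RNase L, the highest per kilobase at 141.

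The PKR branch, with the other eIF2α kinases and the phosphatase subunits, had a median of -0.019 over 10 genes, 3 above and 7 below 0, and -0.101 without control replicate 2. *Eif2ak4* (GCN2) stood at 621 and 913 in the controls against 536 in each mutant, at a log2 fold change of -0.49 and an unadjusted limma p of 0.0604. *Eif2s1*, the substrate of PKR, stood at 347 and 285 against 363 and 380 (0.24), and *Dnajc3*, an inhibitor of PKR, was highest per kilobase at 303. The 7 genes of death signalling beside ZBP1 had a median of 0.12, or 0.108 without control replicate 2, with *Fadd* at -0.09 the 1 gene below 0. *Casp8* had the smallest p and the highest level per kilobase, at 436 and 438 in the controls against 483 and 513 in the mutants.

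Nucleases and editors that limit self nucleic acid had a median log2 fold change of 0.16 over 12 genes, 9 of them above 0, and 0.177 without control replicate 2. *Apobec1*, a cytidine deaminase of RNA, stood at 273 and 201 normalized counts in the controls, against 467 and 415 in the Tet3 mutants. Both mutants were above both controls, by 0.91 on the log2 scale (standard error 0.195), and by 0.687 over control replicate 1 alone. The unadjusted limma p of 0.00538 was the smallest among the 133 genes, and the adjusted p was 0.681. *Rnaseh2c*, a subunit of RNase H2, had the smallest p on the lower side at -0.063, and *Adarb1*, which encodes the editor ADAR2, had the highest level per kilobase (175) with a log2 fold change of 0.013.

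Receptors and factors of interferon signalling had a median of 0.09 over 14 genes, 11 above 0, and 0.0091 without control replicate 2. *Irf9*, which encodes a DNA-binding factor of the response element, stood at 658 and 541 in the controls against 668 and 703 in the mutants (0.20 on the log2 scale, limma adjusted p 0.722). *Irf2* had the smallest p on the lower side, at -0.09, and *Ifngr1* was highest per kilobase at 387. All 20 effectors were above 0 with a median of 0.41, and without control replicate 2 the median was 0.094. *Ifit3b* stood at 55 and 40 in the controls against 81 and 77 in the mutants, with an unadjusted limma p of 0.0512, and *Ifitm3*, an inhibitor of viral entry, was highest per kilobase at 548.

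Of 9 interferons and early cytokines, 5 had a mean of at least 10 and were tested, and 4 of these were above 0 with a median of 0.59. It was 0.351 without control replicate 2 and 0.264 where the mean had to reach 50. *Cxcl9*, a chemokine induced by interferon-γ, stood at 14 in each control against 23 and 69 in the mutants (1.45 on the log2 scale, unadjusted limma p 0.0593). *Isg20*, an exonuclease, was the 1 gene below 0, at -0.027, and the highest per kilobase at 89.8. *Ifnb1*, the gene of interferon-β, and the interferon genes *Ifna4* and *Ifnk* are not analysed here. The 5 tested genes therefore include no interferon, and their median says nothing about interferon transcripts.

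**Figure D4:**
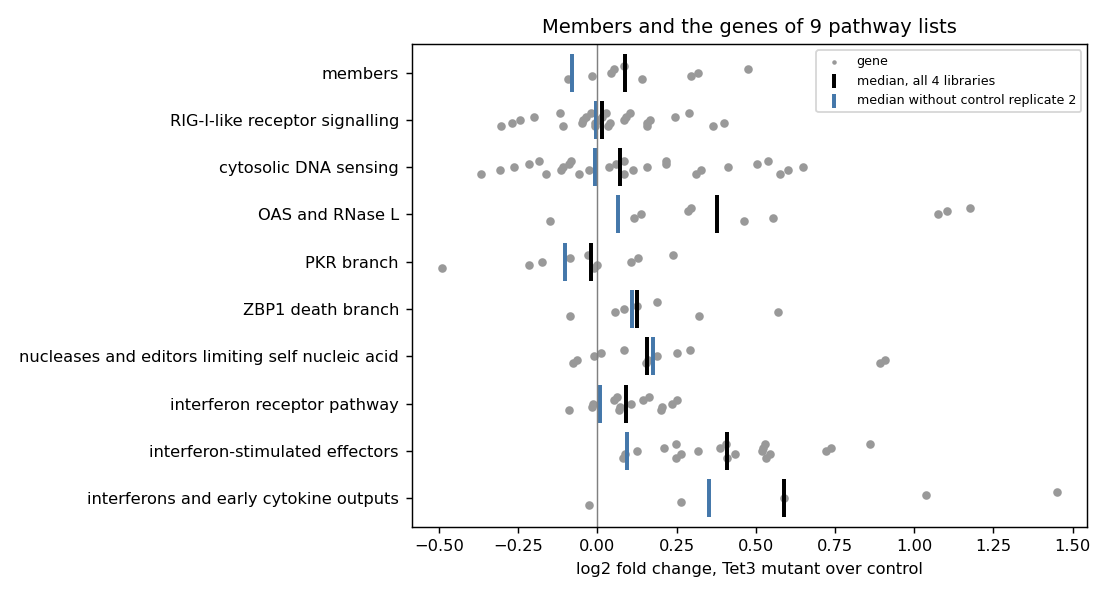
Log2 fold change (Tet3 mutant over control) of the 9 members and of each tested gene of the 9 pathway lists (grey), with the list median from all 4 libraries (black) and without control replicate 2 (blue). The median of interferon-stimulated effectors moves from 0.41 to 0.094 and that of the members from 0.09 to -0.079.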

How the data were processed

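RNA of sorted lung SMCs was depleted of ribosomal RNA and made into stranded libraries (4 in all, 2 per group). The submitters' processing notes name Trimmomatic 0.36, STAR 2.6.0c, mm10 (GRCm38) and featureCounts of Subread 1.6.0. Per the methods, reads on several genes or places were left out and DESeq2 was applied. The table deposited by the authors holds a score, here reads per gene scaled between libraries and rounded, so no count test was run.

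Values were compared as log2(value + 1), which understates changes of low genes, where the mean was at least 10. limma 3.58.1 (lmFit, eBayes with trend) in R 4.3.3 was used, adjusting p by Benjamini-Hochberg across 16659 genes, and the procedure was tested on simulated data. Errors of fold changes are moderated standard errors, and intervals are at 95%. p-values rest on the spread between 2 libraries per group, which limma moderates toward a trend over all genes tested. That spread includes the difference in sex between the 2 controls.

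Library factors of 0.9005 to 1.09 were estimated from gaps and pile-ups among low values. Counting SDs rest on these estimates and cover counting error only. Exon lengths came from GENCODE M21, where 98.9% of the deposited genes had the same coordinates, and merge the exons of all transcripts of a gene. The members and lists were chosen with earlier results of these data known. Named were every member, the 3 pathway genes nearest to the member of smallest p, and of each pathway list the gene of smallest p per direction and that of highest level per kilobase. Alternatives were pseudocounts of 0.5 and 8, no filter and a mean of at least 50, TMM factors computed on the table, equal totals, no trend, a replicate block, and each library left out.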

Additional observations from a re-analysis of the deposited data

How the results depend on the processing

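No member was called in limma under any of the 8 other settings of scaling, filter and model or without any 1 library (smallest adjusted p 0.216, without control replicate 1). With 1 library left out, the lone library of a group is assumed to vary like the others. *Sting1* had an unadjusted p of 0.0552 without the trend and of 0.103 and 0.203 without Tet3 mutant replicates 1 and 2. Without control replicate 1, the control left was male and both mutants female, so genotype cannot be told apart from sex there. The log2 fold changes were then 0.604 for *Sting1*, 0.935 for *Zbp1* and 0.585 for *Dhx58*.

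Leaving out 1 library moved the member median between -0.079 and 0.25, at control replicates 2 and 1. Directions changed for *Ddx58* (-0.092 to 0.263), *Ifih1* (-0.079 to 0.182), *Zbp1* (-0.30 to 0.935), *Eif2ak2* (-0.19 to 0.16) and *Mavs* (-0.0091 to 0.095), the last without Tet3 mutant replicate 2. List medians ranged from -0.0066 to 0.131 for DNA sensing, 0.065 to 0.829 for OAS and RNase L, -0.10 to 0.0026 for the PKR branch, 0.108 to 0.184 for the ZBP1 branch, 0.13 to 0.236 for nucleases and editors, 0.0091 to 0.211 for interferon receptors, 0.094 to 0.754 for effectors and 0.351 to 0.966 for cytokine outputs, whose median was 0.264 with a mean of at least 50.

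Equal library totals shifted the median of all genes from -0.0069 to 0.042, and gave *Eif2ak2* 0.033, the PKR branch 0.029 and the ZBP1 branch 0.173. Replicate numbers are shared between groups. Deviations of same-numbered libraries from their group means correlated by 0.13 across 16659 genes, which, with 2 libraries per group, does not establish pairs. Under the replicate block 0 members were called, and *Sting1* had an unadjusted p of 0.0537. The cause of these changes was not tested. The number of libraries, 2 per group, limits what can be detected.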
